A study of Mus musculus with 4 samples.

Results

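The FGF23 12 h kidney library was compared directly with the FGF23 4 h library, to describe what the kidney expressed 8 h later in the same series. Barcodes with at least 300 genes and at most 50% mitochondrial UMIs were kept, where a UMI is a unique molecular tag that counts 1 captured RNA molecule. That gave 11120 barcodes at 4 h and 10356 at 12 h, or 21476 of the 41076 kept barcodes of the series. All animals were C57BL/6 mice aged 10 weeks, both sexes, and each library was made from pooled male and female kidneys by 10x Genomics 3′ single-cell RNA sequencing. The 1, 4 and 12 h groups had received 10 µg per mouse of recombinant human FGF23 as 1 injection into the peritoneum. The 0 h library is labelled as 0 µg, and the labels do not settle whether its mice were given a vehicle injection. After digestion, red cells were lysed and dead cells were removed on beads, which sets in part which cells reached the libraries.

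There was 1 library per group. The values below therefore describe these libraries, without a replicate check and without a test, and intervals cover counting error only. Time after FGF23, clock time at collection (not in the labels), the animals and the preparation cannot be told apart. The intervals also treat every UMI as independent.

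FGF23 is a hormone from bone that lowers blood phosphate. In the kidney it binds FGF receptors together with the co-receptor Klotho and signals through the MAP kinase ERK, with fast induction of immediate early genes and of feedback inhibitors. In the proximal tubule it lowers phosphate uptake and active vitamin D, the latter through less Cyp27b1, which makes the active form, and more Cyp24a1, which breaks it down. The kidney also has a strong circadian clock, in which the activators Clock and Arntl (Bmal1) drive the Per, Cry, Nr1d and Dbp genes through E-box DNA elements.

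Of 31053 annotated genes, 14112 had at least 100 UMIs over both libraries. Of these, 347 (2.46%) were at least 2-fold higher at 12 h in CPM, the count of a gene scaled to a common total of UMIs, and 202 (1.43%) were at least 2-fold lower, while the median log2 ratio of 12 h over 4 h was -0.02. The 95% counting interval lay wholly beyond 2-fold for 181 of the higher and 105 of the lower genes, and 38 and 15 genes differed 4-fold or more.

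Most genes that were higher at 12 h had been at their lowest at 4 h. Of the 347 higher genes, 306 had their lowest level of the 4 libraries at 4 h and 295 were within 2-fold of the 0 h library at 12 h. Only 30 stood at least 2-fold above each of the other 3 libraries. Of the 202 lower genes, 136 had their highest level at 4 h, and 64 were at least 2-fold above 0 h at 4 h and back within 2-fold of it at 12 h. Another 51 were at least 2-fold below each of the other libraries at 12 h. These counts are a description, since the genes were chosen on the 4 h and 12 h values.

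**Figure D1:**
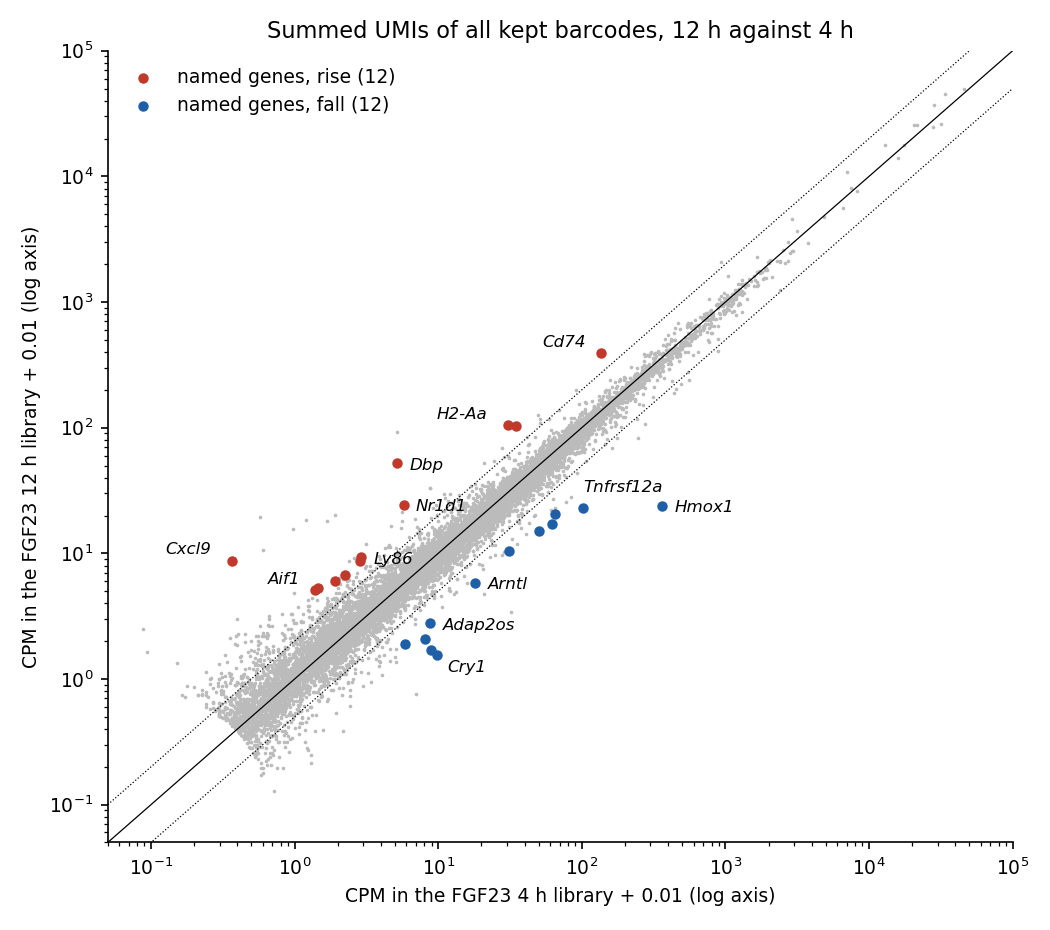
CPM of each of 14112 genes in the 12 h library (y axis) against the 4 h library (x axis), both log axes after adding a small constant. The solid line marks equal values, dotted lines mark 2-fold, and the 12 named rises (red) and 12 named falls (blue) are coloured. Hmox1, with 360 CPM on the x axis and 23.7 CPM on the y axis, lies farthest below the lines among the named falls.

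The gene of largest fall among those named was Hmox1, which encodes heme oxygenase, the inducible enzyme that degrades heme. Its levels at 0, 1, 4 and 12 h were 56.1, 148, 360 and 23.7 CPM. The 12 h level was thus below that of every other library, 15.2-fold under the 4 h level (log2 ratio -3.92, 95% interval -3.98 to -3.87). Proximal tubule-like (PT-like) cells held 82.5% of its UMIs at 4 h, and within them it went from 436 to 26.1 CPM. With every cell thinned to 2000 UMIs, Hmox1 was seen in 41.9% of 7078 PT-like cells at 4 h (95% interval 40.8 to 43.1) and in 5.46% of 5966 at 12 h (4.90 to 6.07). Unthinned, the shares were 73.0% and 24.4%, at median depths of 11649 and 10955 UMIs. In B cell-like cells the thinned share was 1 of 71 at 4 h and 0 of 213 at 12 h, at median depths of 2369 and 2380.5 UMIs before thinning. The other Nrf2 target list genes, which act in antioxidant defence, differed less. Osgin1 went from 62.6 to 27.2 CPM (-1.20) and Txnrd1, a thioredoxin reductase, from 161 to 101 CPM (-0.67). Nqo1, a quinone reductase, was higher, at 29.1 and 45.0 CPM (0.63). Of 13 list genes tested, 2 were at least 2-fold lower and 10 were below 0, with a median log2 ratio of -0.33.

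Tnfrsf12a, the receptor for the cytokine TWEAK, was also among the named falls, at 14.6, 32.1, 102 and 22.8 CPM at 0, 1, 4 and 12 h (log2 ratio of 12 h over 4 h -2.16). It was the only 1 of the 12 named falls whose 12 h level was still above 0 h. The difference was found in several tubule classes. In cells like those of the distal convoluted and connecting tubule (DCT/CNT-like) it went from 338 to 70.9 CPM (-2.25) and in PT-like cells from 94.4 to 20.5 CPM (-2.20). In principal cell-like (PC-like) cells of the collecting duct it went from 47.0 to 8.98 CPM (-2.32). In TAL-like cells the difference was smaller (30.0 and 18.4 CPM, -0.70), and the thinned share of cells was 5.30% and 5.12%. After thinning, 44.1% of DCT/CNT-like cells showed it at 4 h and 12.1% at 12 h. Other genes of the tubule injury list that were at least 2-fold lower were Lor (-1.99), Krt20 (-1.54), the cell cycle inhibitor Cdkn1a (-1.51) and Lcn2 (-1.28), the iron-binding protein lipocalin. The keratins Krt8 (-0.22) and Krt19 (-0.02), Clu (0.02), Havcr1 (0.04), which encodes the injury marker KIM-1, and Sox9 (0.17) differed little. The list had 5 of 20 tested genes lower, none higher, and a median of -0.29, with -0.66 in male-called and -0.07 in female-called barcodes.

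Genes of ERK signalling were mostly lower at 12 h than at 4 h. Hbegf, a ligand of the EGF receptor, was at 24.9, 135, 40.8 and 14.3 CPM at 0, 1, 4 and 12 h, and Egr1, an immediate early transcription factor, at 47.2, 225, 50.5 and 15.2 CPM. In the whole library both had thus mostly come down by 4 h. In DCT/CNT-like cells Hbegf had not, and Egr1 was still above its 0 h level. There Hbegf was at 4.99, 277, 244 and 17.1 CPM (log2 ratio of 12 h over 4 h -3.83, interval -4.13 to -3.56), and Egr1 at 43.1, 451, 136 and 15.7 CPM (-3.11). In PT-like cells Hbegf was already down to 24.4 CPM by 4 h, and measured 12.3 CPM later (-0.99). DCT/CNT-like cells held 32.7% of all Hbegf UMIs at 4 h and 6.47% at 12 h.

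Several feedback inhibitors of the pathway were lower in both sexes. Dusp6, a phosphatase of ERK, was at 25.1, 78.3, 63.1 and 35.6 CPM (-0.83), Dusp5 at 2.36, 4.28, 4.05 and 1.78 CPM (-1.18) and Spry4, a Sprouty inhibitor, at 2.90, 6.96, 7.24 and 3.70 CPM (-0.97). The values for Dusp6 stayed above 0 h at 12 h, and those for Dusp5 did not. Among the Sprouty-related inhibitors Spred2 (-0.05) and Spred3 (0.16, from 133 and 123 UMIs) differed little. The ETS factors Etv4 and Etv5, which ERK signalling induces, were instead highest at 12 h. Etv5 was at 8.33, 10.4, 10.9 and 13.0 CPM and Etv4 at 0.199, 0.315, 1.30 and 1.68 CPM, with 81.8% of Etv4 UMIs in DCT/CNT-like cells at 12 h. Of the 16 tested genes of the ERK feedback and target list, 2 were lower by 2-fold or more (Hbegf and Dusp5), none was higher, 13 were below 0 and the median was -0.57. In DCT/CNT-like cells, where 1.24% of 8297 tested genes were at least 2-fold lower, 5 of 14 list genes were.

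Several immediate early genes were below the 0 h library at 12 h. Fos was at 120, 145, 77.0 and 25.8 CPM (-1.58), Jun at 375, 364, 313 and 177 CPM (-0.82) and Myc at 5.79, 7.07, 6.90 and 2.74 CPM (-1.33). Their 12 h values were the lowest of the 4 libraries. The list had 16 of 18 tested genes below 0, 3 at least 2-fold lower (Egr1, Fos and Myc), none higher and a median of -0.69, against -0.02 over all genes. Atf3 lay just inside the 2-fold limit. Nr4a1 was the main exception with 1.75 CPM at 4 h against 2.70 CPM later (0.62). Immediate early genes also respond to tissue digestion, and the part of that step was not tested. The median was -0.79 in PT-like, -1.0 in DCT/CNT-like, -1.23 in intercalated cell-like (IC-like) and -0.35 in endothelial-like cells.

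Chaperones of the endoplasmic reticulum were lower as a group. Hspa5, which encodes the chaperone BiP, was at 347, 322, 555 and 239 CPM (-1.21), and Creld2 at 23.1, 22.4, 42.8 and 17.5 CPM (-1.29). For Sdf2l1 the values were 22 CPM at 0 h, and 38.0 and 15.8 CPM at 4 and 12 h (-1.26). These 3 genes peaked at 4 h and were below 0 h at 12 h. All 16 genes of the unfolded protein response list were below 0, 3 of them by 2-fold or more, and the list median was -0.51. Hspa5 was lower in PT-like (-1.28), DCT/CNT-like (-1.18), PC-like (-1.50) and IC-like cells (-0.78), and was nearly level in B cell-like cells (226 and 233 CPM). Xbp1, a transcription factor of the same response, was at 218 and 197 CPM (-0.14), still above its 78.7 CPM at 0 h.

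Heat shock genes, most of them cytosolic chaperones and with the mitochondrial Hspd1 and Hspe1 in the list, were also lower, with less uniformity between the sexes. Of 14 genes 13 were below 0, none by 2-fold, with a median of -0.54 (-0.66 in male-called and -0.19 in female-called barcodes). Their summed level differed less, at 5316 and 4783 CPM (-0.15). The median was -0.59 in PT-like and -0.33 in DCT/CNT-like cells, but 0.10 in TAL-like cells, where 10 of 13 tested genes were above 0. Cryab, a small heat shock protein, was at 145 and 73.9 CPM at 4 and 12 h, with log2 ratios of -1.92 in male-called and -0.05 in female-called barcodes. Hspa8, the constitutive chaperone, ran the other way, at 1481, 1249, 1050 and 1606 CPM at 0, 1, 4 and 12 h (0.61). The metal-binding metallothioneins Mt1 and Mt2 went from 490 to 224 CPM and from 46.2 to 19.8 CPM (-1.13 and -1.22). Both remained above their 0 h levels of 110 and 12.5 CPM. As a ratio, the Mt1 level differed more in PT-like cells (286 and 91.2 CPM) than in DCT/CNT-like cells (2789 and 1408 CPM). The same held against cells like those of the thick ascending limb (TAL-like, 1955 and 1246 CPM). In CPM the difference was larger in both of these other classes.

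**Figure D2:**
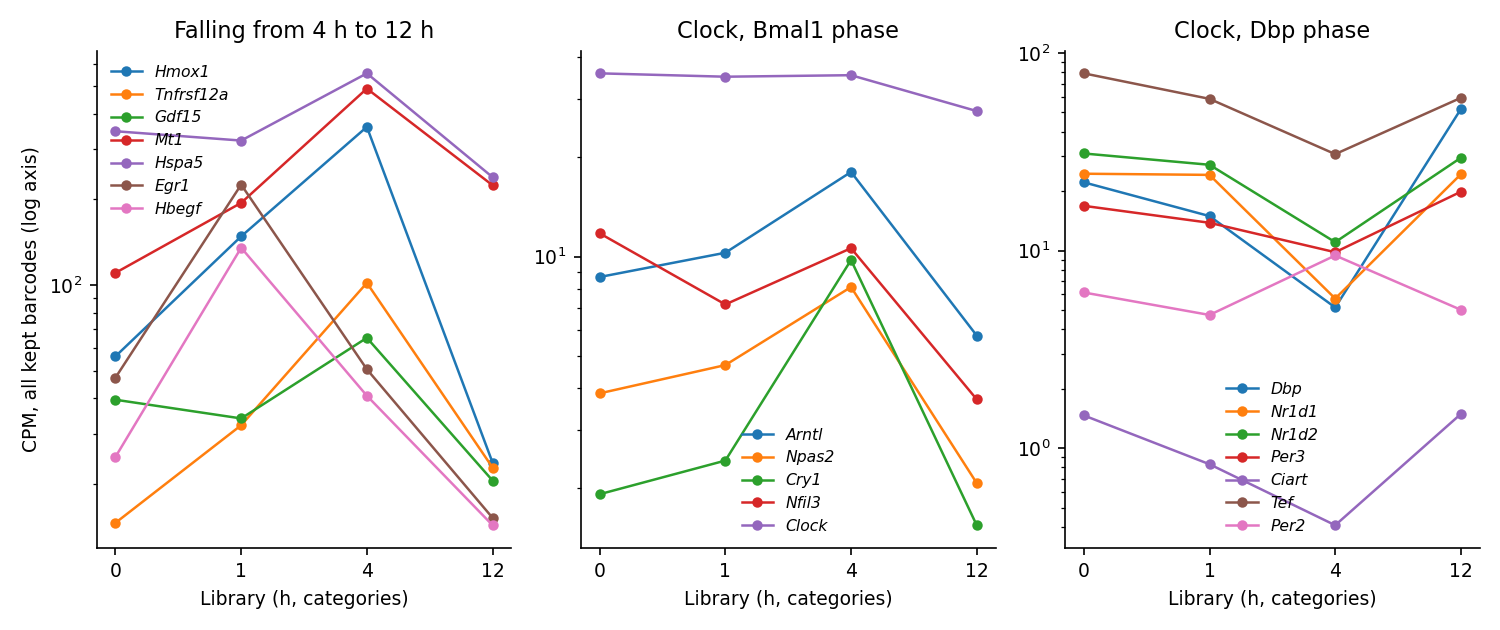
CPM over all kept barcodes (y axis, log) in the 0, 1, 4 and 12 h libraries (x axis, categories), 1 line per gene and 1 library per point. Left, genes lower at 12 h than at 4 h, of which Hmox1 ends at 23.7 CPM; middle, clock genes of the Bmal1 phase, where Arntl goes from 18.0 to 5.77 CPM after 4 h; right, clock genes of the Dbp phase, with Dbp at 5.16 and 52.0 CPM.

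Clock genes formed the clearest pair of opposed lists. Of the Bmal1 phase list, 4 of 5 genes were at least 2-fold lower at 12 h and the median was -1.64. Arntl was at 8.68, 10.3, 18.0 and 5.77 CPM at 0, 1, 4 and 12 h (-1.64), Npas2, a paralogue of Clock, at 3.86, 4.70, 8.09 and 2.07 CPM (-1.97), Cry1, a repressor, at 1.91, 2.42, 9.77 and 1.54 CPM (-2.66), and Nfil3 at 11.8, 7.17, 10.6 and 3.70 CPM (-1.52). Clock itself was at 35.3 and 27.5 CPM (-0.36).

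Of the Dbp phase list, 5 of 10 genes were at least 2-fold higher, none lower, and the median was 0.98. Dbp, a transcription factor that binds D-box elements, was at 22.2, 15, 5.16 and 52.0 CPM, a 10.1-fold difference between 4 and 12 h (log2 ratio 3.33, interval 3.22 to 3.45). Nr1d1, which encodes the repressor Rev-erb alpha, was at 24.5, 24.2, 5.72 and 24.3 CPM (2.09), so that its 12 h level was close to 0 h. Nr1d2 (1.42), Per3 (1.02) and Ciart (1.86), a clock repressor, were higher by the same rule, and Tef, a relative of Dbp, was at 0.95. Per2 (-0.91) and Per1 (-0.66) were lower, although they are in the same list.

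The sexes did not carry this equally. The median of the Dbp phase list was 1.30 for male-called barcodes and -0.0049 for female-called ones, and that of the Bmal1 phase list -2.92 and -1.03. Dbp went from 5.18 to 75.2 CPM in male-called barcodes, and from 5.14 to 16 CPM in female-called ones. Arntl had log2 ratios of -2.95 and -0.68. Whether the sexes differ was not tested, since each group has 1 library and the number of animals of each sex is not given.

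Dbp was higher in tubule and endothelial-like classes. In PT-like cells it went from 4.81 to 57.1 CPM (3.57), in TAL-like cells from 4.24 to 45.2 CPM (3.37) and in endothelial-like cells from 11.6 to 99.4 CPM (3.06). The difference was smaller in DCT/CNT-like cells, at 3.09 and 10.5 CPM (1.75), and T/NK-like cells were at 18.6 and 25.6 CPM (0.43, from 16 and 40 UMIs). Thinned to 2000 UMIs, Dbp was seen in 0.961% of PT-like cells at 4 h and in 9.62% at 12 h, in 0.723% and 8.54% of TAL-like cells, and in 1.83% and 15.6% of endothelial-like cells. Without thinning, the PT-like shares were 5.80% and 36.3%. The thinned share in B cell-like cells was 1.41% and 2.35%.

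The sequences before the start sites of 3 genes of these lists are shown because no other gene of their list holds more matches to the elements named for it; Slc30a10, a metal transporter of the metallothionein and zinc list, holds as many metal element cores as Mt2. They are the 250 bases upstream of the RefSeq start site (GRCm38.p6), written in the direction of the gene. Capitals mark only the E-box in Ciart, the D-box in Per3 and the metal element core in Mt2. Searched on both strands were the E-box (CACGTG, in 6.02% of 32851 such mouse windows), the D-box (TTATGNAA, 3.07%) and the core of the metal response element (TGCACNC or TGCGCNC, 21.4%). Ciart (chr3:95882229-95882478, minus strand) has 3 E-boxes, Per3 (chr4:151044666-151044915, minus strand) has 2 D-boxes, and Mt2 (chr8:94172368-94172617, plus strand) has 3 metal element cores.
Ciart: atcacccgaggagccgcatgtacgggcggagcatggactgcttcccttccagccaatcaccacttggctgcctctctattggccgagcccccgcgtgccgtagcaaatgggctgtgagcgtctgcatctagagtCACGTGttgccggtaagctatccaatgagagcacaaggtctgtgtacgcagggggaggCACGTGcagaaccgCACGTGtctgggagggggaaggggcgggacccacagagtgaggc
Per3: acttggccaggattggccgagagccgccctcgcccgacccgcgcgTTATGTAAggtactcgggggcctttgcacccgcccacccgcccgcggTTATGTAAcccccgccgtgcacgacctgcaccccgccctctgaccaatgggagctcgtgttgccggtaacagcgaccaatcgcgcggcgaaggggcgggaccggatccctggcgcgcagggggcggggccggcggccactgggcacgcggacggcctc
Mt2: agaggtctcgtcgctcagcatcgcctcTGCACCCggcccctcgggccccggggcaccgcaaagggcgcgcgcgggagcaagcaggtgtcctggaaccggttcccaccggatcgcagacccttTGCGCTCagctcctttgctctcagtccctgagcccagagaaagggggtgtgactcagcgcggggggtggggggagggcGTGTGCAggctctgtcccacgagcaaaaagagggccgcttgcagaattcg
Of the Dbp phase list, 4 of 9 genes with a window held an E-box, as did 1 of 5 genes of the Bmal1 phase list (Cry1). The windows of Dbp and Nr1d1 held no E-box. The metal element core was in 4 of 6 genes of the metallothionein and zinc list with a window. It was also in 7 of 9 genes of the Dbp phase list and 3 of 5 of the Bmal1 phase list. Dbp held 4 such cores and Per3 held 3, which are in lower case above. A match is a description of letters and not evidence of binding.

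Glucocorticoid targets were lower, more so in female-called barcodes, a difference that was not tested. The list median was -0.66, with -0.28 in male-called and -1.20 in female-called barcodes, and 4 of 15 tested genes were at least 2-fold lower. Zbtb16, a transcription factor and classical glucocorticoid target, was at 3.84, 4.25, 5.05 and 1.36 CPM (-1.89). Over all classes it was nearly level in male-called barcodes (1.13 and 1.26 CPM, 0.16) and lower in female-called ones (13.1 and 1.5 CPM, -3.12). PT-like cells held 73.1% of its UMIs at 4 h and 8.75% at 12 h, and there they numbered 525 at 4 h and 14 at 12 h (log2 ratio -4.91, interval -5.84 to -4.20). In female-called PT-like barcodes they numbered 465 and 2, and in male-called ones 37 and 10. Fkbp5, a co-chaperone of the receptor, was at 45.7 and 27.2 CPM (-0.26 in male-called and -1.70 in female-called barcodes). Sgk1, a kinase that regulates sodium channels, went from 47.8 to 9.24 CPM in PT-like cells (-2.37) but was at 137 and 126 CPM in PC-like cells. Tsc22d3 (-0.15) and Dusp1 (-0.07) differed little.

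The readouts of FGF23 on mineral metabolism mostly stayed where they were at 4 h. Cyp24a1, the vitamin D 24-hydroxylase, was at 43.7, 196, 345 and 268 CPM (-0.36), so that at 12 h it was still well above 0 h. In PT-like cells, which held 81.8% and 83.1% of its UMIs, it was at 414 and 328 CPM (-0.34, interval -0.36 to -0.31). Cyp27b1 had 18 and 21 UMIs in PT-like cells, too few to compare. Vdr, the vitamin D receptor, was at 96.2, 124, 170 and 165 CPM. The sodium-phosphate cotransporters Slc34a1 and Slc34a3 went from 2932 to 2527 CPM (-0.21) and from 38.7 to 41.8 CPM (0.11). None of the 11 tested genes of the vitamin D and phosphate list passed 2-fold, and their median was -0.04.

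Klotho (Kl) was at 256, 249, 206 and 170 CPM (-0.28). In DCT/CNT-like cells, the class with its highest level, it went from 1370 to 974 CPM (-0.49, interval -0.54 to -0.45), and in PT-like cells it was at 127 and 123 CPM. The FGF receptor genes Fgfr1 (0.05), Fgfr3 (0.17) and Fgfr4 (-0.08) differed little, as did the list as a whole, with none of 6 genes past 2-fold and a median of -0.11. All 14 genes of distal calcium and sodium handling were below 0, none by 2-fold, with a median of -0.26. Among them Calb1, a calcium-binding protein, was at 267 and 184 CPM (-0.54), and Slc12a3, the thiazide-sensitive cotransporter, at 493 and 474 CPM (-0.06). With class or cluster shares of UMIs held at those of the 4 h library, the list median was -0.22 or -0.096. Below 0 were 11 of 14 tested list genes in DCT/CNT-like cells (median -0.26), 9 of 9 in IC-like (-0.34) and 4 of 9 in PC-like cells (0.11).

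**Figure D3:**
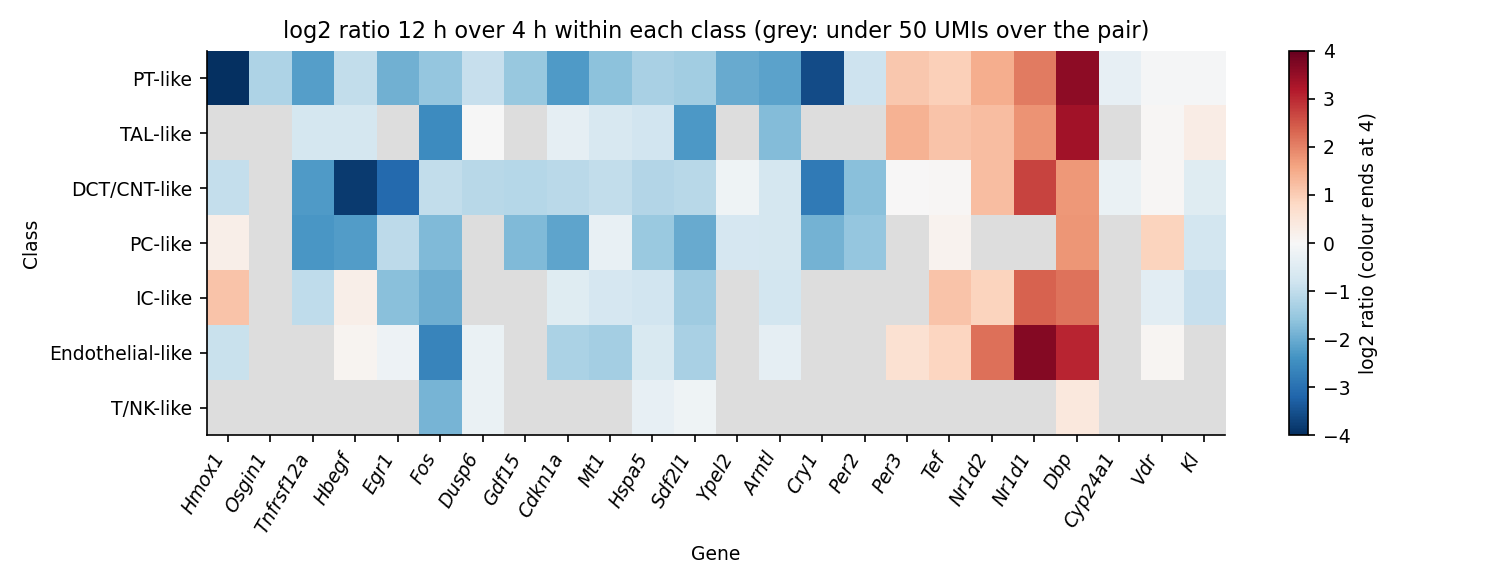
Log2 ratio of 12 h over 4 h (colour, ends at 4) for 24 genes (x axis) within each of 7 marker-defined classes (y axis), with cells under 50 UMIs over the pair in grey. Dbp and Nr1d1 are red in the tubule and endothelial-like classes that have a value, and Hmox1 is darkest blue in PT-like cells (-4.06).

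Cholesterol synthesis genes differed by class. Over all barcodes the list median was -0.14, with 1 of 18 genes at least 2-fold lower. In DCT/CNT-like cells 5 of 17 tested genes were at least 2-fold lower, none higher, and the median was -0.93. There Insig1, the sterol sensor, was at 12.4, 25.1, 41.4 and 13.5 CPM at 0, 1, 4 and 12 h (-1.61), with its peak at 4 h and a 12 h level near that of 0 h. Hmgcs1, an enzyme of the mevalonate pathway, was in the same cells at 98.5, 151, 305 and 155 CPM (-0.98), while in PT-like cells it was at 235 and 243 CPM (0.05). In TAL-like cells all 11 tested genes of the list were above 0.

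DCT/CNT-like cells also differed in other genes. Beside the 1.24% of genes lower, 56 genes (0.675%) were at least 2-fold higher. Gulo, which encodes the last enzyme of vitamin C synthesis, was at 2.79, 4.18, 6.17 and 36.9 CPM (2.57), and these cells held 88.0% of its UMIs at 12 h. It was thus higher with each later library, and higher at 12 h than at 4 h in male-called (4.02) and female-called barcodes (1.33). Ache, acetylcholinesterase, was at 0.598, 2.27, 4.24 and 15.7 CPM (1.87), also with 12 h the highest. Iigp1, an interferon-inducible GTPase, had 118 UMIs at 4 h and 2 at 12 h (15.2 and 0.314 CPM). Its endothelial-like level was much higher, at 431 and 296 CPM (-0.54).

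In PT-like cells 101 of 11709 tested genes (0.863%) were at least 2-fold higher and 149 (1.27%) lower. Beside Dbp, the largest rises by the naming rule were Xlr3b (0.507 to 2.73 CPM, 2.42) and Cplx3 (0.300 to 1.33 CPM, 2.13). Beside Zbtb16 and Hmox1, the third fall was Dusp8, a phosphatase of stress kinases, with 194 and 12 UMIs (-3.69). Ypel2 went from 70.3 to 17.6 CPM (-2.0) in these cells and hardly differed in DCT/CNT-like cells (-0.17). Ctxn3, of which PT-like cells held 86.8% of UMIs at 4 h and 91.0% at 12 h, was at 9.66, 9.21, 8.92 and 1.70 CPM over all barcodes (-2.38), level until 4 h and lower only at 12 h. The markers of the straight segment of the proximal tubule were lower (7 of 8 below 0, 2 by 2-fold, median -0.59), and those of the early segment were not (5 of 9 above 0, median 0.14). Slco1a1, an organic anion transporter of the straight segment, was at 255, 207, 163 and 69.0 CPM (-1.24). Fewer cells of a segment and less RNA per cell cannot be told apart in such sums. With cluster shares of UMIs held at those of the 4 h library, the straight segment median was -0.39 and Slco1a1 was at -1.05. What each part contributed was not tested.

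TAL-like cells differed in the fewest genes of the 5 classes compared in this way, with 14 of 6510 (0.215%) higher and 10 (0.154%) lower. The named rises were the clock genes Dbp, Nr1d1 (8.19 to 28.9 CPM) and Per3 (9.04 to 23.8 CPM), and the named falls were Sdf2l1 (57.9 to 11.6 CPM), Pim1 (19.8 to 8.27 CPM) and Lncpint (25.7 to 11.6 CPM). Sdf2l1 was also among the named falls of endothelial-like cells (50.1 to 20.4 CPM), where 17 of 4950 genes (0.343%) were higher and 16 (0.323%) lower. Endothelial-like Fos went from 88.7 to 14.0 CPM and Fosb from 58.9 to 20.4 CPM. Cxcl10, a chemokine induced by interferon, had 10 UMIs at 4 h and 99 at 12 h in these cells. At 12 h that was 28 UMIs in male-called barcodes and 0 in female-called ones, so the higher level came from male-called barcodes or barcodes without a sex call. In PT-like cells Cxcl10 ran the other way, at 5.46 and 2.65 CPM.

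T/NK-like cells (T and natural killer cells) had 30 of 3050 genes (0.984%) higher and 24 (0.787%) lower. The interferon-stimulated gene Isg15 was at 29.1 and 84.4 CPM (1.51) there, against 426 and 322 CPM in endothelial-like cells. Ccl1, a chemokine, had 177 UMIs at 4 h and 24 at 12 h. In male-called cells they numbered 28 and 0, and in female-called cells 14 and 24, so most of those at 4 h were in barcodes without a sex call. Cenpf, a gene of mitosis, was at 106 and 21.7 CPM. These immune-like classes also held RNA from tubule cells. The proximal tubule gene Slc34a1 read 83.8 CPM at 4 h against 198.9 CPM at 12 h in T/NK-like cells, so low levels of tubule genes there are read as background.

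**Figure D4:**
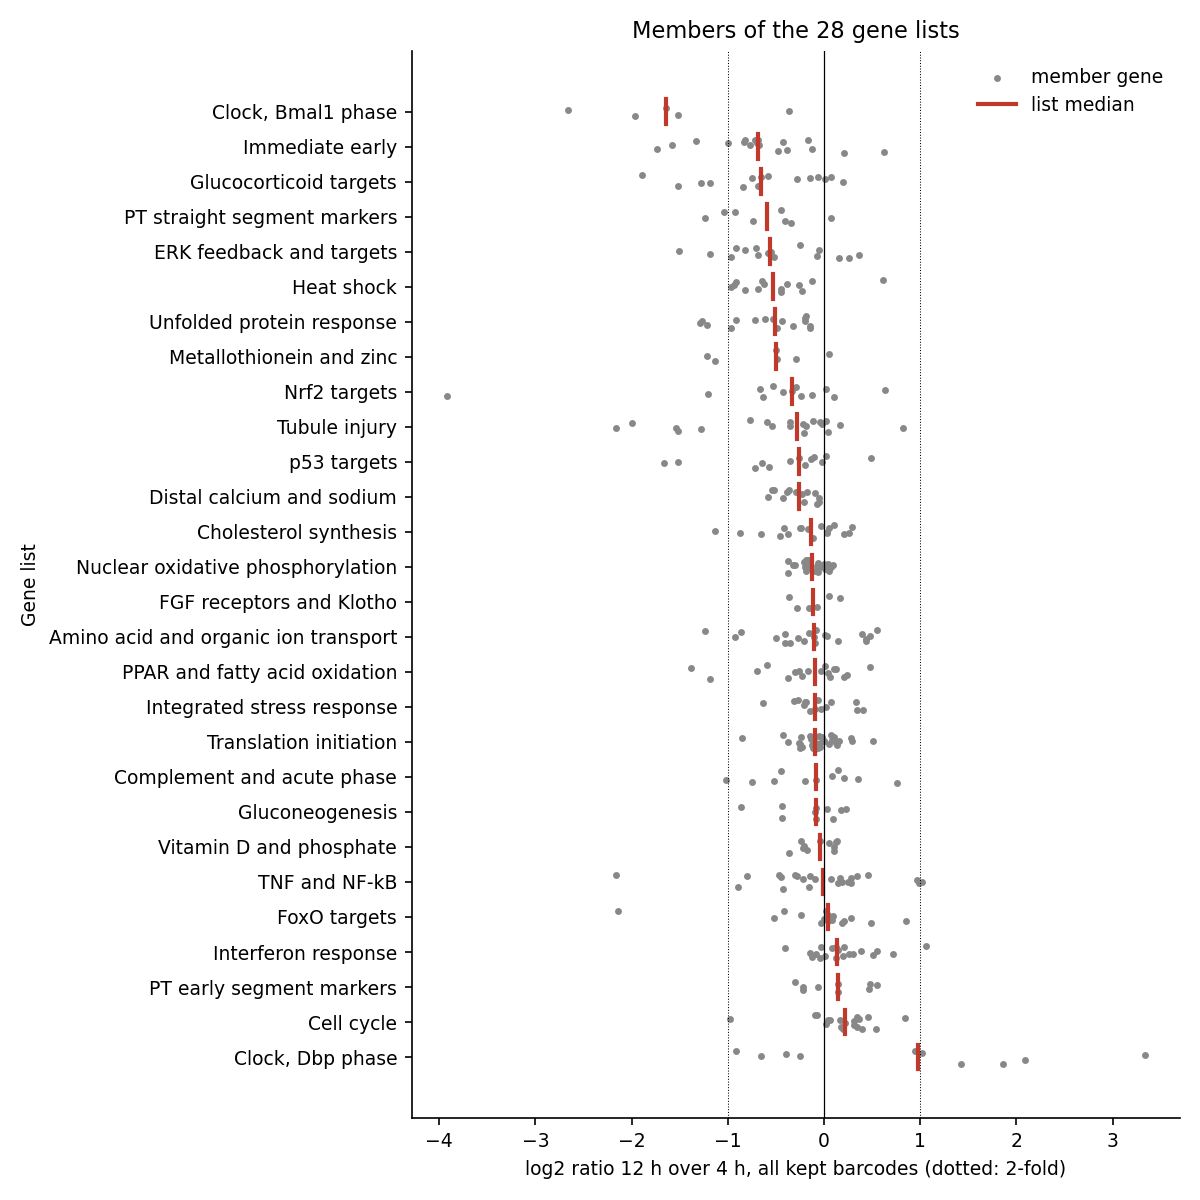
Log2 ratio of 12 h over 4 h over all kept barcodes (x axis, dotted lines at 2-fold) for tested members (grey points) of the 28 gene lists (y axis), with list medians in red. The Bmal1 phase list has the lowest median (-1.64) and the Dbp phase list the highest (0.98).

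Among all 28 lists, the other medians were closer to that of all genes. Interferon response genes had a median of 0.13 with 1 of 20 higher (Oas1a, 0.443 and 0.924 CPM), but the median was -0.055 with class shares and -0.22 with cluster shares of UMIs fixed at 4 h. It was -0.20 in endothelial-like cells, where 15 of 19 tested genes were below 0. In PC-like cells, 116 at 4 h and 84 at 12 h, the median was -1.54, with all 6 tested genes at least 2-fold lower. No share over all genes is given for that small class. Cell cycle genes had 0.21, translation initiation -0.09, integrated stress response -0.09, nuclear oxidative phosphorylation -0.12 and p53 targets -0.26. Within the p53 list, Gdf15, a stress cytokine, was at 39.5, 33.9, 65.2 and 20.5 CPM (-1.67). The TNF and NF-kB list was centred at -0.01 (-0.29 with cluster shares fixed), with Tnfrsf12a lower and Ccl5 (1.02) higher. Of the gluconeogenesis genes G6pc, glucose-6-phosphatase, was at 426 and 235 CPM (-0.86) and Pck1 at 1422 and 1050 CPM (-0.44), with a list median of -0.08. In the FoxO list Bcl6, a repressor, was at 12.3, 29.4, 21 and 4.74 CPM (-2.15), with -3.12 in male-called and -0.30 in female-called barcodes.

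The makeup of the 12 h library differed. How far the genes named as higher moved with it depended on whether class or cluster shares were fixed. After doublet calls were removed, the PT-like share was 70.8% of cells at 4 h and 65.6% at 12 h. B cell-like cells were 0.908% and 2.84%, T/NK-like cells 2.35% and 4.25%, and endothelial-like cells 5.17% and 7.21%. Macrophage-like cells numbered 5 and 47. IC-like cells were 2.26% and 1.40%. Mesenchymal markers summed to 88.9 and 29.2 CPM, with 4 of 6 genes at least 2-fold lower, and PC markers to 721 and 399 CPM, with 3 of 7 lower. Macrophage markers were above 0 in 7 of 7 genes, 6 of them by 2-fold or more, with summed levels of 78.3, 34.9, 12.5 and 62.0 CPM at 0, 1, 4 and 12 h. B cell markers were above 0 in 6 of 6 and T/NK markers in 7 of 8. The 4 h library was thus the lowest of the 4 in macrophage marker RNA. Haemoglobin and the erythroid gene Alas2 summed to 34.0, 2.70, 8.66 and 148 CPM, and an unnamed cluster of 64 barcodes at 4 h and 78 at 12 h had haemoglobin genes as its leading genes. This rise did not move with the makeup: the median log2 ratio of the 4 tested erythroid genes was 4.08 as sampled. It was 4.13 with class shares and 4.09 with cluster shares of UMIs fixed at 4 h, and its source was not tested.

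Of the 12 named rises, Cxcl9, Dbp and Nr1d1 came first. Cxcl9, an interferon-induced chemokine, was at 2.82, 4.94, 0.359 and 8.75 CPM (4.59, interval 4.2 to 5.04), from 51 UMIs at 4 h and 1032 at 12 h. Endothelial-like cells held 7.95% of it at 12 h, all in 4 of 685 cells, and at 4 h 3 of 524 had it. It was seen in 5 of 7171 and 3 of 6233 PT-like cells, and in 0 of 238 and 3 of 404 T/NK-like cells, at 4 and 12 h. It was also among the 10 leading genes of an unnamed cluster of 26 and 46 barcodes, led by MHC class II genes. The other 9 were Aif1, Bank1, H2-Aa, Ly86, Bcl2a1b, Pou2f2, Rnase6, H2-Eb1 and Cd74, which are genes of myeloid cells, B cells or antigen presentation, with log2 ratios of 1.54 to 1.87. Cd74, the chain that guides MHC class II molecules, was at 414, 288, 135 and 393 CPM. All 12 named rises were lowest at 4 h, and 10 were within 2-fold of 0 h at 12 h. With the shares of UMIs of the single clusters held at those of the 4 h library, 3 of the 12 (Cxcl9 3.12, Dbp 3.38 and Nr1d1 2.13) were still at least 2-fold higher, H2-Eb1 stood at -0.019, and 100 genes (0.709%) instead of 347 were higher. All 12 named falls were still at least 2-fold lower, with 148 genes (1.05%) lower. This way of fixing the makeup was chosen after the data had been seen. With the shares of whole classes fixed, the planned way, 8 of the 12 named rises stayed at least 2-fold higher. All 12 stayed above 0, and 172 genes (1.22%) were higher and 145 (1.03%) lower. With the named immune-like classes left out, also chosen after the data had been seen, 9 of the 12 rises stayed at least 2-fold higher.

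**Figure D5:**
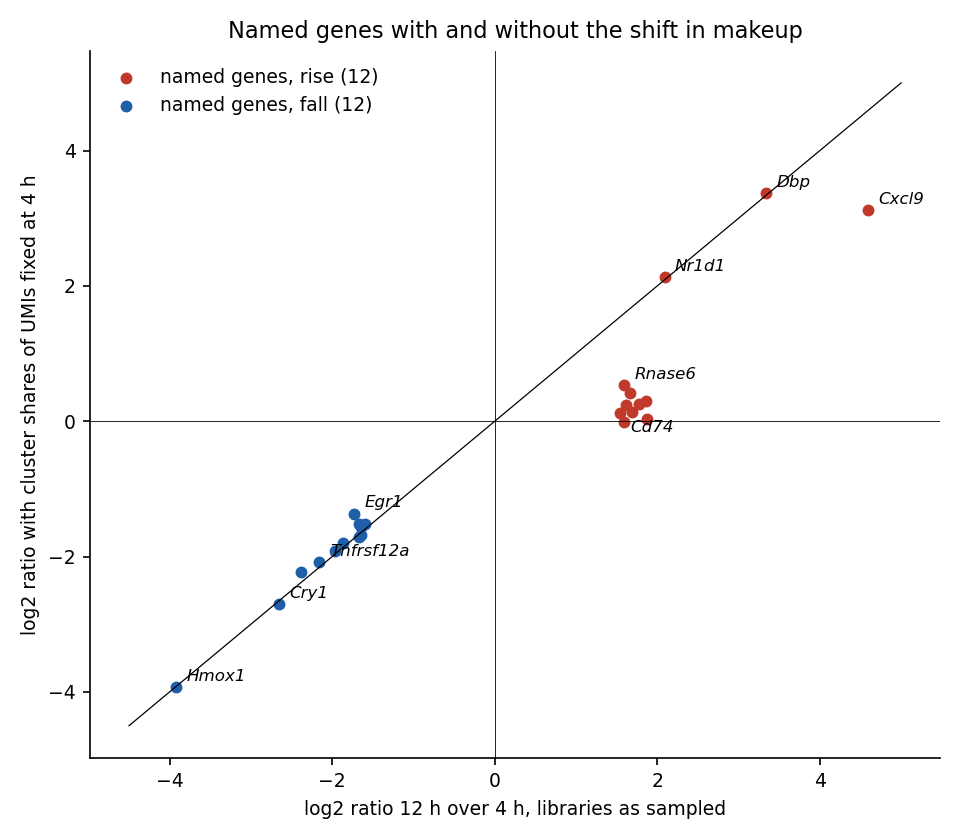
Log2 ratio of 12 h over 4 h of the 24 named genes as sampled (x axis) and with cluster shares of UMIs fixed at 4 h (y axis), with the line of equal values. Falls (blue) and the rises Dbp and Nr1d1 lie near the line, Cxcl9 is at 3.12 on the y axis, and the other 9 rises lie between -0.019 and 0.53.

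Few genes were both highest at 12 h and still higher with the makeup fixed. At 5 CPM or more, at least 2-fold above each other library and at least 2-fold higher with cluster shares fixed, there were 5, a rule chosen after the data had been seen. Beside Dbp these were Tnfsf15 (3.62, 3.87, 3.81 and 8.19 CPM), a TNF family cytokine, Rnase4 (2.41, 3.62, 4.17 and 9.71 CPM), Ang, angiogenin (1.43, 2.32, 2.54 and 5.98 CPM), and AY036118 (13.8, 16, 51.4 and 118 CPM). Ang and Rnase4 are ribonuclease genes that share a promoter and upstream exons, so their reads may not be separable.

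The reverse rule, at least 2-fold below each other library at 12 h, gave 11 genes. They were Hmox1, Ctxn3, Bcl6, Zbtb16, Egr1, Fos, Cyr61, Cyp4a12a, Myc, Slco1a1 and Rcan1. Cyr61, a matricellular protein and an early response gene, was at 72.5, 115, 60.8 and 22.1 CPM (-1.46). Rcan1, an inhibitor of calcineurin, was at 58.0, 91.0, 47.5 and 20.3 CPM (-1.23). Cyp4a12a, a male-biased fatty acid hydroxylase, was at 33.1, 24.3, 25 and 9.60 CPM (-1.38). Also among the named falls were Lonrf3, with 5.88 CPM at 4 h and 1.88 CPM at 12 h, and Adap2os, with 8.78 and 2.75 CPM, a transcript antisense to Adap2 whose reads may not be separable from it.

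The libraries held between 139675666 and 158838728 total UMIs, and the kept barcodes 142112983 at 4 h and 117971129 at 12 h. Median UMIs per kept barcode were 10992.5 and 9422.5, and mitochondrial genes made up 19.5% and 23.8% of UMIs. Among barcodes with a sex call, 44.8% and 44.3% were female. The 2 libraries shared 42 barcode sequences. The part of depth, mitochondrial share and makeup in single genes was not tested beyond the values above.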

How the data were processed

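The deposited files hold raw UMI counts per gene and barcode, written by the authors with Cell Ranger 3.1.0 and STAR on mm10, per the submitters' processing notes, and not normalised. Counts of kept barcodes were summed per library, or per class, and divided by their total (CPM). The log2 ratio adds 0.5 UMIs to each count, its 95% interval is exact binomial, and shares have Clopper-Pearson intervals. Genes with 100 or more UMIs over the pair were compared. Doublet calls, made in each library by comparison with simulated ones (8.89% at 4 h, 8.29% at 12 h), were left out of the classes, but not of the whole-library sums. Cells of the 4 libraries were clustered together (leidenalg 0.10.2, resolution 1.5, 30 components) into 43 clusters, of which 12 stayed unnamed (5.22% of cells at 4 h, 5.55% at 12 h). They were named from marker lists by thresholds set after the clusters had been seen, so names are rebuilt here and may differ from the study's. Sex was called per barcode from Xist against 4 Y-linked genes. Named genes are the 12 largest rises and falls at 5 CPM or more, 2-fold changed, and 1.5-fold the same way in both sexes, without markers, mitochondrial, ribosomal, haemoglobin, receptor segment and unnamed gene models. In each of 5 classes with 200 or more cells in both libraries they are the 3 largest each way. Members and lists were chosen with earlier results of these data known. Matched in GENCODE vM21 were 99.6% of gene IDs. Ratios were checked on simulated counts with known changes. A few genes, 1 of the named falls among them, are counted in the totals but not reported here by name.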

Additional observations from a re-analysis of the deposited data

Results flagged for a closer look

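Flagged were 3 results in which the male-called and female-called barcodes moved in opposite directions between 4 and 12 h. They are not the only ones. Krt15 (log2 ratios of 1.91 in male-called and -0.92 in female-called barcodes) and the cell cycle list (medians of 0.44 and -0.08) also did so. None of these differences was tested, with 1 library on each side. The median log2 ratio of the PPAR and fatty acid oxidation list was 0.24 for male-called barcodes and -0.40 for female-called ones. That of the complement and acute phase list was 0.39 and -0.41. Angptl4, an inhibitor of lipoprotein lipase and itself a member of the PPAR list, was at 0.65 in male-called barcodes and -2.05 in female-called ones. It was level over all barcodes (15.7 CPM at both times).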

How the results depend on the processing

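No paired analysis was possible because each group has 1 library, and no replicate could be left out. The count of higher genes, 347, was 537 with a mitochondrial limit of 25%, 588, 151 and 2263 with a minimum of 20, 500 and 1 UMIs, and 172 with class shares fixed. Chosen after the data were seen, it was 199 without the immune-like classes and 100 with cluster shares fixed. The count of lower genes, 202, was 432, 98 and 1954 with a minimum of 20, 500 and 1 UMIs, and 115 in female-called barcodes, where 12735 genes reached the minimum; over the same 14112 genes female-called barcodes gave 198 and male-called ones 376. For PT-like cells, female-called barcodes gave 66 higher and 88 lower. TAL-like cells had 26 higher with doublets kept, 3 higher and 6 lower at the 25% limit, and 5 higher and 17 lower in male-called barcodes. DCT/CNT-like cells had 26 higher at the 25% limit, 27 in male-called and 26 in female-called barcodes. Endothelial-like cells had 9 higher in female-called and 4 lower in male-called barcodes, and T/NK-like cells 9 higher at the 25% limit, 15 in male-called and 9 in female-called barcodes, where 12 were lower. Lists with a median fall of 0.5 or more numbered 7, or 4 with mitochondrial genes out of the total and 3 with barcodes weighted equally. The single list with such a rise was 0 in female-called barcodes. At the 25% limit the shares at 4 and 12 h were 73.6% and 63.9% for PT-like, 1.60% and 1.43% for TAL-like, 3.23% and 2.96% for DCT/CNT-like, 6.89% and 10.6% for endothelial-like and 3.14% and 6.35% for T/NK-like cells. With doublets kept, PT-like shares were 69.7% and 64.2%. Among the 24 named genes the single reversal was H2-Eb1, at -0.019 with cluster shares fixed. Some list medians also changed sign, among them interferon response from 0.13 to -0.055 and -0.22 with class and cluster shares fixed, macrophage markers from 3.44 to -0.13 with cluster shares fixed, and the Dbp phase list from 0.98 to -0.0049 in female-called barcodes. The cause of these shifts was not tested, apart from fewer genes or cells where a setting removes them. Depth limits Cyp27b1 and the macrophage-like cells, which were too few to compare.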
